A study of Mus with 4 samples.

Results

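Transcripts of the vacuolar proton pump (V-ATPase) and of the lysosome were compared between *Mut* and *WT* nephron progenitors at 44 genes, chosen by name: 21 encode V-ATPase subunits or the accessory subunit *Atp6ap1*, and 23 encode lysosomal hydrolases, membrane proteins, lumenal cofactors or the regulator *Tfeb*. They were held by 65 probes, out of 16358 named genes and 41174 probes measured. The V-ATPase uses ATP to pump protons into lysosomes, endosomes and secretory vesicles. Its V1 sector, in the cytosol, hydrolyses ATP, and its V0 sector, in the membrane, carries the protons. Lysosomal hydrolases break down proteins, lipids and sugars in the acid lumen that the pump maintains, and *Tfeb* encodes a transcription factor known to act on many genes of both groups. The prorenin receptor (PRR, gene *Atp6ap2*), which was deleted in the *Mut* mice, is itself an accessory subunit of the V-ATPase.

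*Mut* embryos were *Six2*Cre+/PRR flox/flox and *WT* embryos were their *Six2*Cre+/PRR+/+ littermates, so both genotypes carried the Six2GFPCre transgene, which drives Cre and GFP in nephron progenitors and passes the deletion on to the epithelia they form. Kidneys were taken on embryonic day 15.5, the mouse strain is not given in the sources used here, and each sample is a pool of several kidneys from which the GFP+ cells were sorted by FACS. On arrays 1, 2 and 3 the *Mut* pool of that number, labelled with Cy3, was hybridized together with the *WT* pool that bore its number, labelled with Cy5. The remaining array, named *WT* vs *WT* here, compared *WT* pool 1 (Cy5) with *WT* pool 2 (Cy3).

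The dyes were never exchanged between *Mut* and *WT*, so dye and genotype cannot be told apart on arrays 1 to 3. P values rest on the spread between 3 pairs of pools, which limma draws toward the spread over all probes. Values are log2 *Mut*/*WT* ratios of signal after background correction and loess normalization, or normalized log2 signals of 1 channel. A gene with several probes is represented by its brightest probe, on average over channels, unless another is named. A probe was called where limma gave a Benjamini-Hochberg adjusted P under 0.05 over all probes and the fold change was over 1.5. Direction was taken from the dye labels. Of all probes, 45.1% to 49.5% in *Mut* and 54.1% to 58.3% in *WT* were well above background, and 4 arrays limit the precision of every value. The single probe of *Atp6ap2* passed the adjusted P, with a mean ratio of -0.17 (SE 0.055, limma adjusted P = 0.0352), but its log2 Cy3/Cy5 between both *WT* pools was -0.19, so it is no check of the genotype labels. Its place in the transcript was not determined, and the RT-PCR of the paper was not analysed here.

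Most of the 44 genes had a lower signal in *Mut* than in *WT*, 37 against 7 with a higher mean. At the adjusted P alone 29 were lower and 2, *Atp6v0a2* and *Atp6v1b1*, were higher, while 13 did not pass. Across all named genes 18.6% were lower and 14.4% higher at that threshold. With the fold minimum 8 of the 44 genes (18.2%) were called lower, against 1.59% of all named genes, and 0 were called higher, against 0.434%. The 8 genes were *Atp6v1a*, *Atp6v1e1*, *Atp6ap1*, *Ctsz*, *Hexa*, *Gaa*, *Psap* and *Npc2*. The median log2 *Mut*/*WT* of the 44 genes was -0.23, with a range from -1.62 to 0.22, and that of all 16358 genes was -0.0031. The median was -0.26, -0.24 and -0.24 on arrays 1, 2 and 3, and 36 genes were lower and 5 higher on all 3 arrays, where 63.2% of all named genes kept 1 direction. At 29 genes the 3 *Mut* channels all lay below the 3 *WT* channels (22.9% of all named genes), and at 2 genes all lay above them (17.9% of all named genes). In RNA of a sorted pool, fewer cells of a type and less RNA per cell cannot be told apart.

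**Figure D1:**
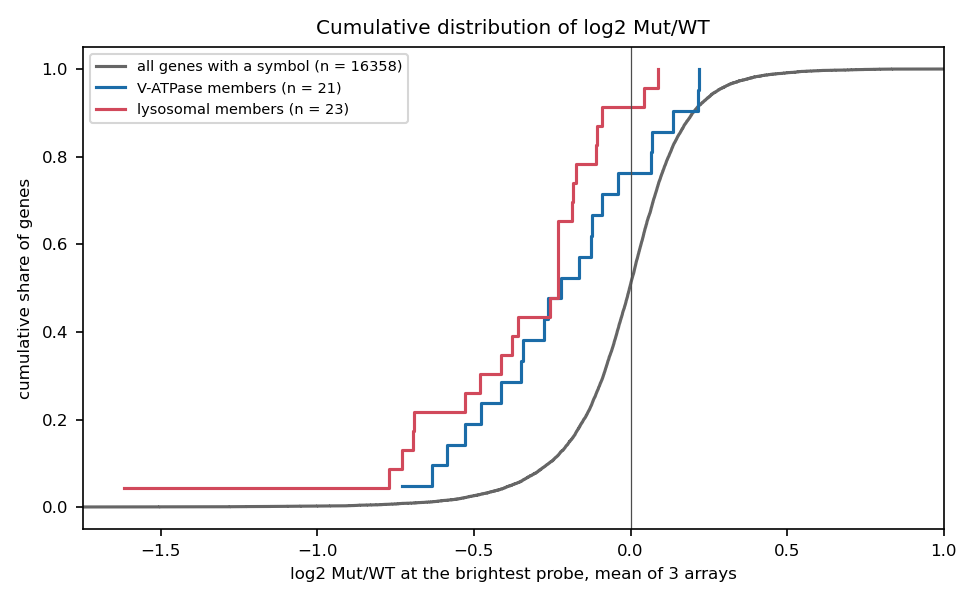
Cumulative share of genes (vertical axis) by mean log2 *Mut*/*WT* over 3 arrays (horizontal axis), for all named genes, the 21 V-ATPase genes and the 23 lysosomal genes. The curves of the V-ATPase genes (median -0.22) and of the lysosomal genes (median -0.23) lie to the left of that of all 16358 genes (median -0.0031).

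Of the 44 genes, 38 were well above background in both channels on arrays 1 to 3. These 38 had a median of -0.27, against -0.0114 over the 9354 genes that met the same condition. At the adjusted P alone 29 of them were lower and 1 higher, where 25.8% and 20.5% of the 9354 genes were. All 8 calls fell among the 38 genes, against 2.67% called lower and 0.759% called higher among the 9354.

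The *WT* vs *WT* array compared pools of 1 genotype, and there the median log2 Cy3/Cy5 of the 44 genes was -0.05, with 30 of them below 0. Ratios of that array were measured once, and dye and *WT* pool cannot be told apart in them. The dye term, which takes each probe's ratio on that array from its *Mut*/*WT* ratio, left the median of the 44 genes at -0.27, and 3 of them, *Psap*, *Npc2* and *Gaa*, remained called, where 0.795% of all named genes were called in either direction. Values across arrays moved as well. *WT* pool 1, in Cy5 on both arrays, gave a lower signal on the *WT* vs *WT* array than on array 1 at 35 of the 44 genes, with a median difference of -0.17 against -0.0213 over all named genes. The mean of the 3 *Mut* pools was set against *WT* pool 2, which carried Cy3 on the *WT* vs *WT* array, and was lower at 29 of the 44 genes, with a median difference of -0.05. It was lower by over 1.5-fold at 0 of the 44 genes and at 48 of all 16358 named genes (0.293%), in a comparison with 1 *WT* pool and no test.

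Among the 21 V-ATPase genes, 11 fell and 2 were higher at the adjusted P alone, against 18.6% and 14.4% of all named genes. With the fold minimum 3 were called lower, against 1.59% of all named genes. Once the dye term was added 0 of the 21 genes passed the adjusted P at their brightest probe (limma). At that probe 1 passed an unadjusted P under 0.05 together with the fold minimum. The second probe of *Atp6v1a* did pass the adjusted P with the dye term. The V1 sector had 11 of the 21 genes, of which 6 fell, 1 was higher (*Atp6v1b1*) and 4 did not pass. *Atp6v1a*, the catalytic subunit that holds the site of ATP hydrolysis, had a normalized log2 signal of 7.68, 7.58 and 7.57 in *Mut* pools 1, 2 and 3 and of 8.30, 8.17 and 8.25 in the *WT* pools of the same arrays. All *Mut* values lay below all *WT* values, with a log2 *Mut*/*WT* of -0.63, a 1.55-fold fall (SE 0.051, adjusted P = 9.27e-06). On the *WT* vs *WT* array *WT* pool 2 was at 7.62 and *WT* pool 1 at 7.80, a difference of -0.50 from array 1 for *WT* pool 1, and with the dye term the adjusted P was 0.0648. The second probe of *Atp6v1a* was at -0.45 (SE 0.067, limma adjusted P = 0.000497) and was not called. Its log2 Cy3/Cy5 between the *WT* pools was 0.25, and the dye term left it at -0.70 (adjusted P = 0.0337). *Atp6v1e1*, a stalk subunit that holds the catalytic head in place, was at 8.49, 8.43 and 8.82 in *Mut* and at 9.23, 9.13 and 9.13 in *WT*. These values did not overlap either, and *Mut* pool 3 lay nearest to *WT*. Its log2 *Mut*/*WT* of -0.59 (SE 0.077, adjusted P = 0.000208) stood at the fold minimum, and the call was lost without the pools of array 1 (-0.51) or of array 2 (-0.53). A second probe of *Atp6v1e1* was called as well, at -0.59 (SE 0.070, limma adjusted P = 0.000102), without overlap of channels. With the dye term neither probe passed (adjusted P = 0.181 and 0.142).

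*Atp6v1h*, a regulatory subunit of V1, was measured by a pair of probes. The brighter was at -0.48 (SE 0.055, adjusted P = 9.17e-05), short of the fold minimum. The dimmer, with 7.11, 7.16 and 7.43 in *Mut* and 7.98, 7.73 and 7.99 in *WT*, was called at -0.67 (SE 0.066, adjusted P = 3.47e-05). On both probes every *Mut* value lay below every *WT* value. *Atp6v1b2*, the more widely expressed form of the B subunit, fell by 0.34 (adjusted P = 0.00208), *Atp6v1c1* by 0.35 (adjusted P = 0.000555) and *Atp6v1g1*, a stalk subunit, by 0.22 (adjusted P = 0.00711), all on the log2 scale. *Atp6v1d*, *Atp6v1f* and *Atp6v1g2* had log2 *Mut*/*WT* ratios of -0.09, -0.13 and -0.17 that did not pass. *Atp6v1b1* and *Atp6v1c2*, forms known from acid-secreting epithelia such as intercalated cells, had no channel well above background on arrays 1 to 3. The higher signal of *Atp6v1b1* (0.22, SE 0.064, adjusted P = 0.0237) is therefore a difference between signals at background, and *Atp6v1c2* was at 0.07 (adjusted P = 0.428).

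The V0 sector had 9 of the 21 V-ATPase genes, of which 4 fell at the adjusted P, 1 was higher and 4 did not pass. At the brighter probe 0 of the 9 genes were called, against 4 lower at the adjusted P alone (limma). Their median log2 *Mut*/*WT* was -0.12. *Atp6v0c*, the main subunit of the ring that carries protons through the membrane, was at -0.53 (SE 0.082, adjusted P = 0.000595), with -0.78, -0.57 and -0.25 on arrays 1, 2 and 3. The third array set it short of the fold minimum, and without the pools of array 3 it was called at -0.67. *Atp6v0b*, another subunit of the ring, fell by 0.26 (adjusted P = 0.00494), and *Atp6v0d1*, which links the ring to V1, by 0.41 (adjusted P = 0.000327). *Atp6v0e2* was at -0.28 (SE 0.054, adjusted P = 0.00255) at its brighter probe. Its dimmer probe, with 7.97, 8.10 and 8.33 in *Mut* and 8.79, 8.81 and 8.83 in *WT*, was called at -0.68 (SE 0.065, adjusted P = 2.83e-05). The *WT* values of that probe lay close together, and the *Mut* values lay below them and were spread more widely.

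The a subunits of V0 are known to direct the pump to different membranes. *Atp6v0a2*, found on the Golgi and endosomes, rose at its brighter probe, at 0.22 (SE 0.056, adjusted P = 0.013), and its *Mut* and *WT* channels overlapped. The second probe of the same gene fell, at -0.23 (adjusted P = 0.0119), so the array gives no single direction for *Atp6v0a2*. *Atp6v0a1* was at -0.04 at the brighter and 0.15 at the other probe, and neither passed (adjusted P = 0.606 and 0.0635). *Atp6v0a4* and *Atp6v0d2*, forms of acid-secreting cells and osteoclasts, likewise had no channel well above background on arrays 1 to 3, and their ratios were 0.06 and 0.14 (adjusted P = 0.369 and 0.0821). *Atp6v0e* had a log2 *Mut*/*WT* of -0.12 (adjusted P = 0.0966).

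*Atp6ap1*, an accessory subunit that helps assemble the pump and steers it to vesicles, had the lowest ratio of the 21 genes. Its signal was 8.24, 8.45 and 8.97 in *Mut* pools 1, 2 and 3 and 9.21, 9.20 and 9.43 in the paired *WT* pools. No *Mut* value reached the lowest *WT* value, although *Mut* pool 3 came nearest. The ratios of arrays 1, 2 and 3 were -0.98, -0.75 and -0.46, with a mean of -0.73, a 1.66-fold fall (SE 0.081, adjusted P = 7.07e-05). *WT* pool 1 changed little between array 1 and the *WT* vs *WT* array, by -0.06, and the mean of the *Mut* pools differed from *WT* pool 2 in Cy3 by -0.54. With the dye term *Atp6ap1* was at -0.67 and no longer passed (adjusted P = 0.0798), with an SE of 0.16 against 0.081 without that term.

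**Figure D2:**
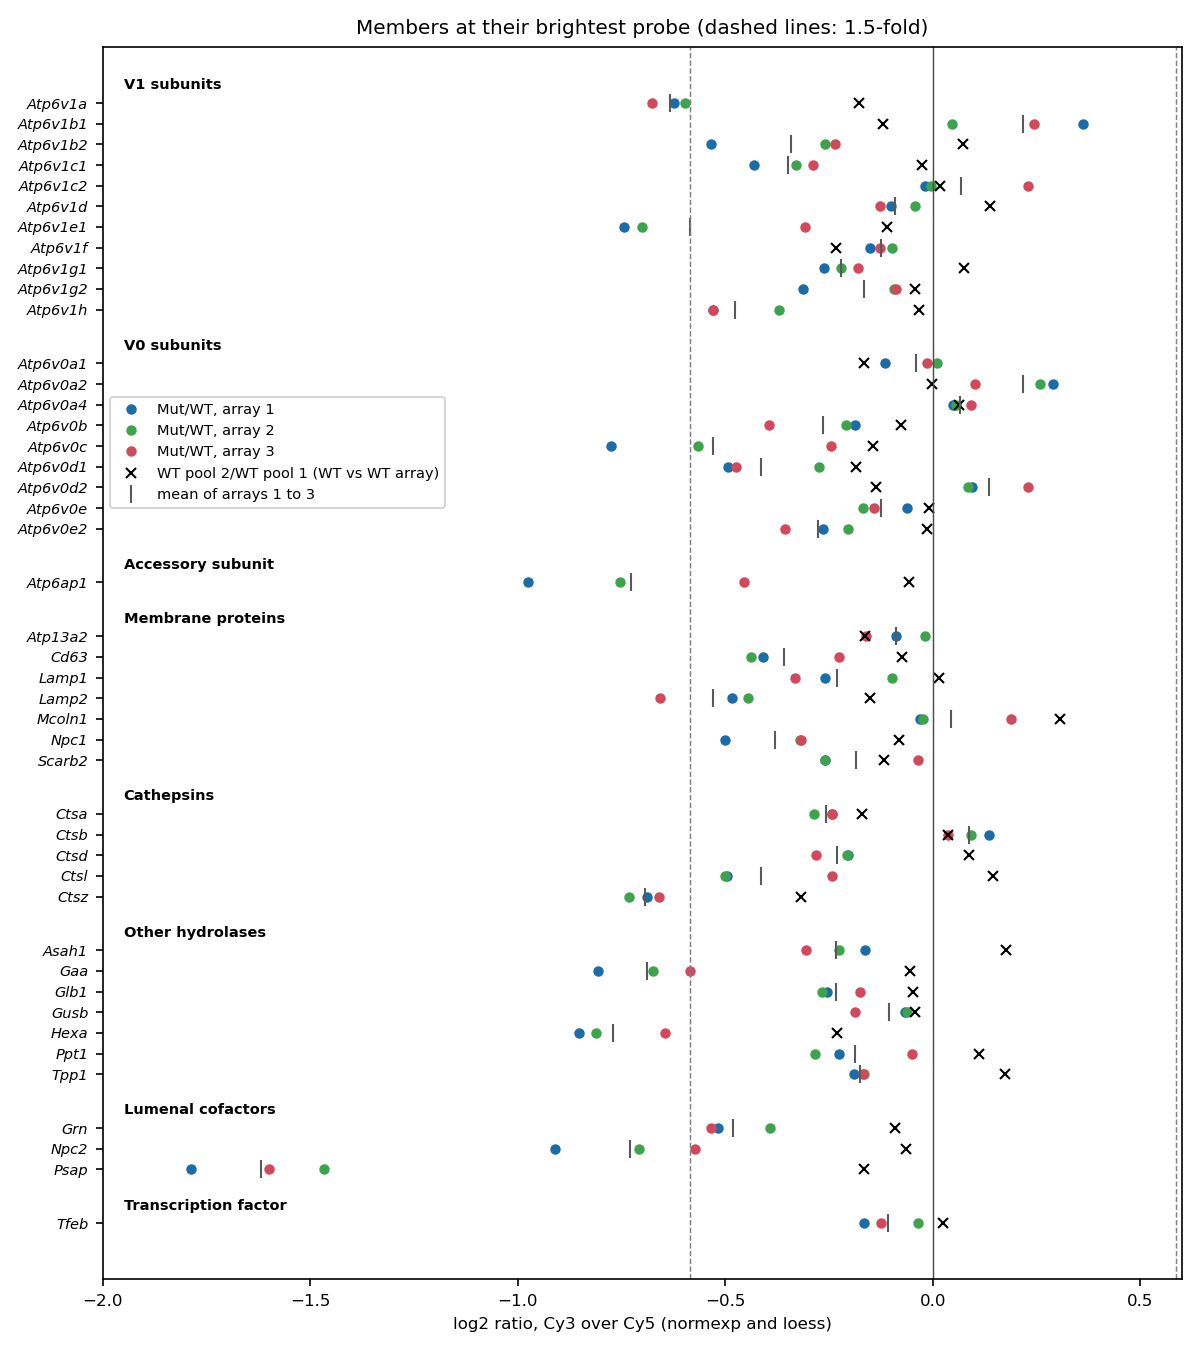
Log2 *Mut*/*WT* ratio (horizontal axis) of each of the 44 genes at its brightest probe, ordered by role, with a point for each of arrays 1 to 3, the mean, and the ratio of the *WT* vs *WT* array. Most points lie left of 0, *Psap* lies farthest left at a mean of -1.62, and points of *Atp6ap1*, *Atp6v0c* and *Atp6v1e1* are spread widely between arrays.

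Among the 23 lysosomal genes, 21 had a mean below 0, against 8316 of all 16358 named genes. At the adjusted P alone (limma) 18 fell and 0 rose, against 18.6% and 14.4% of all named genes. Under the dye term 3 of the 23 genes passed the adjusted P. The 3 lumenal cofactors, which assist hydrolases or bind their substrates, had a median of -0.73. *Psap*, the precursor of the saposins that activate the breakdown of sphingolipids, was at 8.91, 9.07 and 9.07 in *Mut* and at 10.69, 10.53 and 10.67 in *WT*. The gap between the groups was several times wider than the spread within either, and the log2 *Mut*/*WT* of -1.62 was a 3.07-fold fall (SE 0.064, adjusted P = 5.18e-08). A second probe of *Psap* fell 3.29-fold (SE 0.054, adjusted P = 8.92e-09). With the dye term both remained called, at -1.45 (adjusted P = 0.000269) and -1.35 (adjusted P = 0.00016). The *WT* vs *WT* array set *Psap* differently, with *WT* pool 2 at 9.30 and *WT* pool 1 at 9.47. *WT* pool 1, in the same dye, thus differed from its value on array 1 by -1.23, and the mean of the *Mut* pools from *WT* pool 2 by -0.29. The difference of *Psap* between genotypes was therefore large within arrays 1 to 3 and small against *WT* pool 2, and which of the measurements of *WT* pool 1 holds was not tested.

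*Npc2*, which hands cholesterol from the lumen to the membrane, was at 9.72, 10.07 and 10.20 in *Mut* and at 10.63, 10.78 and 10.77 in *WT*. The groups did not overlap, *Mut* pool 1 was the lowest, and the mean fall was 1.66-fold (log2 -0.73, SE 0.065, adjusted P = 1.75e-05). With the dye term *Npc2* was at -0.67 and remained called (adjusted P = 0.036). *WT* pool 1 differed by -0.29 between array 1 and the *WT* vs *WT* array. *Grn*, the precursor of granulins, was at -0.48 at its brighter probe (SE 0.054, adjusted P = 7.43e-05), and at 0.13 at the other, which did not pass (adjusted P = 0.213).

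Of 7 hydrolases other than cathepsins, 7 had a mean below 0, 6 fell at the adjusted P and 2 were called. *Hexa*, the alpha subunit of the hexosaminidase that breaks down ganglioside GM2, was at 9.80, 9.66 and 9.87 in *Mut* and at 10.65, 10.48 and 10.52 in *WT*. *Gaa*, the acid alpha-glucosidase that degrades glycogen, was at 9.09, 9.02 and 9.24 in *Mut* and at 9.90, 9.69 and 9.83 in *WT*. Neither gene had a *Mut* value that reached the *WT* values. *Hexa* fell 1.71-fold (log2 -0.77, SE 0.057, adjusted P = 5.18e-06) and *Gaa* 1.61-fold (log2 -0.69, SE 0.057, adjusted P = 1.08e-05). With the dye term *Gaa* remained called at -0.63 (adjusted P = 0.0245) and *Hexa*, at -0.54, did not (adjusted P = 0.0506). *WT* pool 1 was lower on the *WT* vs *WT* array than on array 1 at both genes, by -0.46 for *Hexa* and -0.48 for *Gaa*. Acid ceramidase (*Asah1*) and beta-galactosidase (*Glb1*) fell by 0.23 each (adjusted P = 0.00668 and 0.00573). *Ppt1*, a thioesterase, and *Tpp1*, a peptidase, fell by 0.19 and 0.18 (adjusted P = 0.032 and 0.0223), the latter at its brighter probe, while its other probe was at 0.03 (adjusted P = 0.754). *Gusb*, beta-glucuronidase, was at -0.11 and did not pass (adjusted P = 0.158).

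Cathepsins are the main lysosomal proteases, and of the 5 among the 44 genes 4 fell. Outside the 44 genes *Ctsf* and *Ctss* fell as well, at -0.39 and -0.31. *Ctsc* rose there, at 0.19 (limma adjusted P = 0.0252), and *Ctsh*, *Ctsk* and *Ctso* did not pass. *Ctsz*, a carboxypeptidase, was at 9.66, 9.61 and 9.86 in *Mut* and at 10.35, 10.34 and 10.52 in *WT*. Its ratio varied least between arrays among the 8 genes called, with -0.69, -0.73 and -0.66 on arrays 1, 2 and 3, and the groups did not overlap. The mean fall was 1.62-fold (SE 0.051, adjusted P = 5.18e-06), and the second probe was at -0.93 (adjusted P = 8.58e-06). *WT* pools 2 and 1 differed by -0.32 on the *WT* vs *WT* array, and with the dye term *Ctsz* was at -0.37 (adjusted P = 0.121).

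*Ctsd*, the aspartic protease cathepsin D, gave unequal values at its pair of probes. The brighter was at -0.23 (SE 0.052, adjusted P = 0.00583), and the dimmer, with 7.65, 7.96 and 8.32 in *Mut* and 8.84, 8.91 and 9.02 in *WT*, was called at -0.95, a 1.93-fold fall (SE 0.078, adjusted P = 1.02e-05). Both were lower on all 3 arrays, without overlap. *Ctsa*, the protective protein of beta-galactosidase and neuraminidase, was held by 3 probes, of which the brightest was at -0.26 (SE 0.051, adjusted P = 0.00278) and 1 was at -0.09 (adjusted P = 0.256). The remaining probe, with 9.88, 10.12 and 10.32 in *Mut* and 10.60, 10.74 and 10.81 in *WT*, was called at -0.61 (SE 0.058, adjusted P = 2.65e-05). The dye term left the brightest and the called probe of *Ctsa* at -0.087 and -0.36, without a pass. *Mut* pool 3 lay nearest to *WT* at the called probes of both genes. *Ctsl*, cathepsin L, fell by 0.41 (adjusted P = 0.000474). *Ctsb*, cathepsin B, was the 1 of these 5 cathepsins that did not fall, with 0.09 at its brighter probe (adjusted P = 0.231). Its other probe, with no *Mut* channel well above background, was at -0.14 and did not pass (adjusted P = 0.0615).

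**Figure D3:**
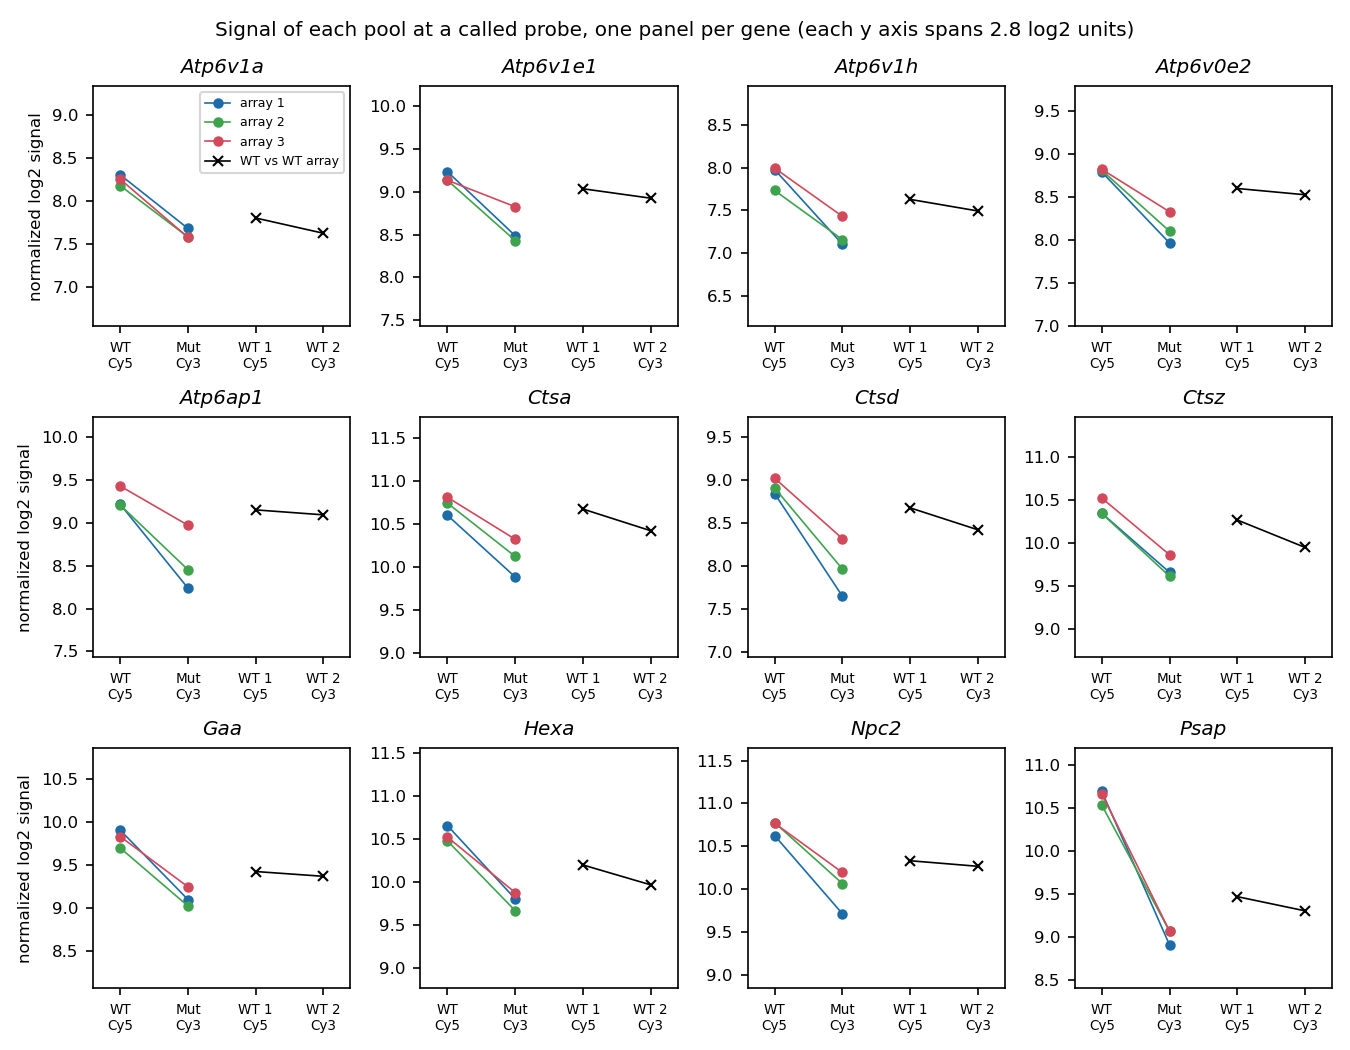
Normalized log2 signal (vertical axis) of 1 called probe for each of the 12 genes that had one, with the *Mut* pools in Cy3 and the *WT* pools in Cy5 of arrays 1 to 3 and both *WT* pools of the *WT* vs *WT* array. At each of the 12 probes the *Mut* points lie below the *WT* points of arrays 1 to 3, and both points of the *WT* vs *WT* array lie no higher than the highest of these *WT* points. At *Psap*, *Npc2*, *Gaa* and *Atp6v1a* both of these lie nearer to the mean of *Mut* than to that of *WT*.

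Of 7 genes of the lysosomal membrane, 5 fell at the adjusted P and 0 were called (limma), with a median of -0.23. *Lamp2* and *Lamp1*, the major glycoproteins of that membrane, were at -0.53 (SE 0.057, adjusted P = 6.03e-05) and -0.23 (SE 0.058, adjusted P = 0.0113). *Lamp2* came nearest to the fold minimum and its channels did not overlap, but its second probe was at -0.10 (adjusted P = 0.179). *WT* pool 1 differed between array 1 and the *WT* vs *WT* array by -0.53 at *Lamp2* and by -0.50 at *Lamp1*, and against *WT* pool 2 in Cy3 the mean of the *Mut* pools was higher at both, by 0.13 and 0.11. *Npc1*, which takes cholesterol on from *Npc2*, fell by 0.38 (adjusted P = 0.000468), the tetraspanin *Cd63* by 0.36 (adjusted P = 0.000761) and *Scarb2*, the carrier of glucocerebrosidase, by 0.19 (adjusted P = 0.0355). The calcium channel *Mcoln1* and the cation pump *Atp13a2* did not pass, at 0.04 and -0.09 (adjusted P = 0.613 and 0.232). *Mcoln1* was below 0 on arrays 1 and 2 and at 0.19 on array 3. *Tfeb* was well above background in *WT* on all 3 arrays and in *Mut* on none, which bounds the signal in *WT* at 1.05-fold that in *Mut* or more, and it did not pass (adjusted P = 0.145). On the *WT* vs *WT* array its probe was likewise well above background in Cy5 (*WT* pool 1) and not in Cy3 (*WT* pool 2).

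Several of these falls were smaller than 1.5-fold at the probe with the highest signal and larger at another. Of the 65 probes, 55 were lower, 15 (23.1%) were called lower and 0 called higher (limma), against 1.46% and 0.551% of all 41174 probes. These 15 probes covered 12 genes, which are the 8 named first with *Atp6v1h*, *Atp6v0e2*, *Ctsa* and *Ctsd*. Under the dye term 4 of the 15 probes passed the adjusted P, both of *Psap* and those of *Npc2* and *Gaa*, while the called probes of *Atp6v1h*, *Atp6v0e2*, *Ctsa* and *Ctsd* did not (adjusted P = 0.0891, 0.0529, 0.18 and 0.0646). Of the 44 genes, 20 had more than 1 probe, and at 6 of them (*Atp6v0a1*, *Atp6v0a2*, *Atp6v0a4*, *Ctsb*, *Tpp1* and *Grn*) the probes differed in sign. Of these probes both of *Atp6v0a4* were at background, the second of *Ctsb* was so in *Mut*, and the second of *Atp6v0a1* was above it on 1 array in *Mut* and 2 in *WT*. The probe sequences were not analysed here, so whether such probes read different transcripts was not tested.

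**Figure D4:**
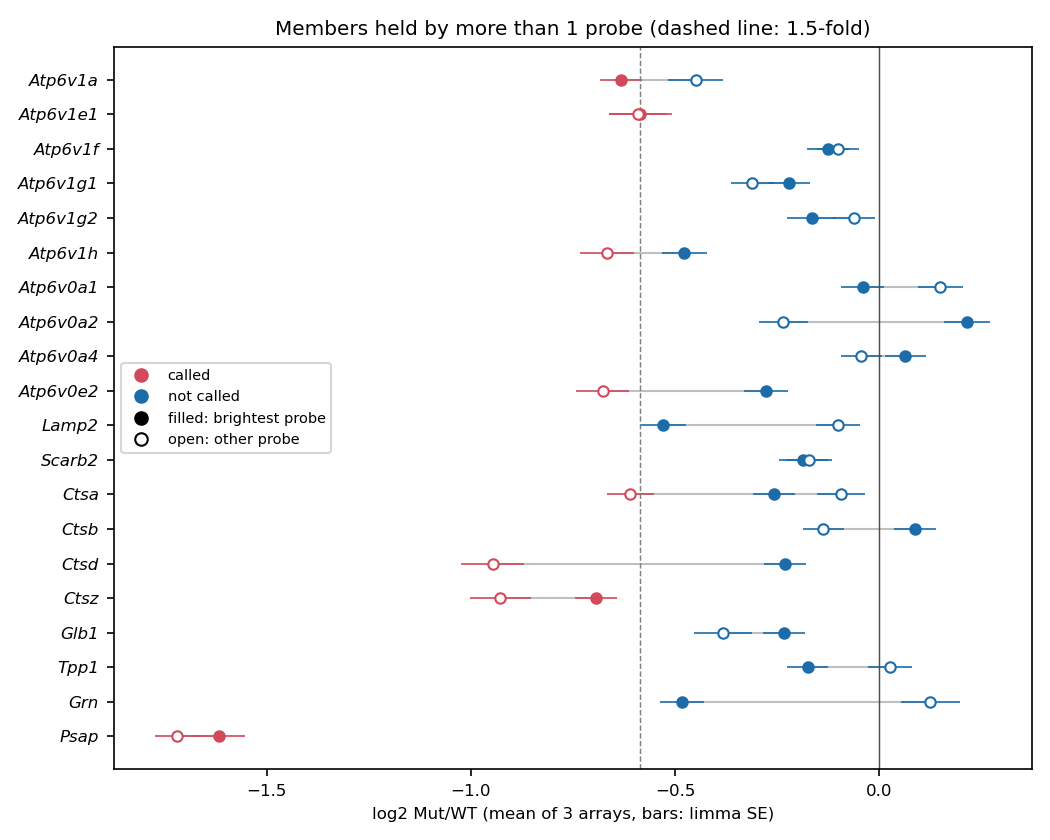
Mean log2 *Mut*/*WT* (horizontal axis) of every probe of the 20 genes with more than 1 probe, with the probe of highest mean signal and called probes marked. The probes of *Psap* lie close together at -1.62 and -1.72, while those of *Ctsd* lie at -0.23 and -0.95 and those of *Atp6v0a2* on either side of 0.

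Outside the 44 genes, 59 of 67 further genes of the same pathways were measured, among them other hydrolases, membrane and sorting proteins, assembly factors of the V-ATPase and regulators. Of these, 28 fell and 6 rose (10.2%) at the adjusted P alone, where 18.6% and 14.4% of all named genes did, and 1 (1.69%) was called lower, against 1.59%. Under the dye term 1 fell and 0 rose (limma). Their median was -0.15, and with the dye term it was -0.06. The gene called at its brightest probe was *Flcn*, folliculin, which acts on nutrient signalling at the lysosome. Its ratios were -0.70, -0.54 and -0.64 on arrays 1, 2 and 3 (mean -0.63, SE 0.054, adjusted P = 1.36e-05). With the dye term it was at -0.67 (adjusted P = 0.0133). Between array 1 and the *WT* vs *WT* array *WT* pool 1 differed at *Flcn* by -0.79, and the mean of the *Mut* pools differed from *WT* pool 2 in Cy3 by 0.03. A second probe each of *Laptm4a* and *Laptm4b* was called as well, at -0.63 and -0.72 (limma adjusted P = 2.31e-05 and 6.54e-05). With the dye term that of *Laptm4a* passed (adjusted P = 0.0201) and that of *Laptm4b* did not (adjusted P = 0.0989). Of 31 hydrolases in this wider list 15 fell and 3 rose, with *Neu1*, a sialidase, at -0.57, *Arsa*, arylsulfatase A, at -0.49 and *Lipa*, lysosomal acid lipase, at 0.26. Between the *WT* pools *Lipa* was at 0.28, and the dye term left it at -0.022. Of 4 measured assembly factors *Tmem199* and *Rogdi* fell, at -0.21 and -0.19, and *Ncoa7* rose, at 0.17. Between the *WT* pools these 3 genes were at -0.16, -0.18 and 0.20, and the dye term left them at -0.047, -0.0032 and -0.032. *Ccdc115* passed the adjusted P as well, at -0.32, but was at -0.63 and -0.43 on arrays 1 and 2 and at 0.088 on array 3, and its channels overlapped. *Tcirg1*, the gene of the a3 subunit, was at 0.07 and did not pass (adjusted P = 0.364).

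Markers of cell types were set beside these values. The 6 nephron progenitor markers had a summed log2 signal of 13.32 to 13.39 in *Mut* and 13.33 to 13.41 in *WT*, which overlapped. Of these 6 genes 4 fell and 1 (*Eya1*) rose at the adjusted P, with a median of -0.22, and 0 were called at the brighter probe (limma), while a second probe each of *Meox1* and *Osr1* was called, at -0.75 and -0.66. Macrophages are rich in lysosomes. Of 9 macrophage markers 7 were measured, and their summed log2 signal was 9.84 to 9.86 in *Mut*, 9.98 to 10.03 in *WT* on arrays 1 to 3, and 9.77 and 9.86 in *WT* on the *WT* vs *WT* array. Of these 7 genes, 4 fell and 1 rose at the adjusted P and 0 were called (limma), with a median of -0.16. *Ctss*, a lysosomal protease and 1 of the 4, also stands in the wider list. The part of these cells, or of the shift in progenitor markers, in the falls of the 44 genes was not tested. The 3 markers *Foxi1*, *Aqp6* and *Slc26a4* of intercalated cells, which are rich in the V-ATPase, were not well above background, and *Slc4a1*, which erythroid cells express as well, was above background on some arrays only and gave 0.21 (adjusted P = 0.0112) with overlapping channels, against 0.31 between the *WT* pools and -0.10 once the dye term was added. The 5 ureteric bud markers had a summed log2 signal of 8.87 to 8.92 in *Mut* and 8.89 to 8.94 in *WT*, and 0 of them passed the adjusted P (limma), with 1, *Gata3*, at an unadjusted P under 0.05. The 5 erythroid markers had a summed log2 signal of 11.71 to 11.79 in *Mut* and 10.64 to 10.78 in *WT* on arrays 1 to 3, and of 11.74 and 11.93 in *WT* on the *WT* vs *WT* array. Of these 5 genes 3 rose at the adjusted P and 1, *Hba-a1*, a haemoglobin chain, was called, at 1.17 (adjusted P = 3.23e-07). Their part in the falls was not tested.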

How the data were processed

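Gene expression was measured in GFP+ *Six2*-lineage cells sorted from *Mut* and *WT* kidneys on embryonic day 15.5, on 4 dual-colour Agilent arrays. These shared 1 slide and scan, which left no batch to compare. Pool, dye and array were taken from the labels. The deposited intensity values are the linear spot signals that the authors extracted with Agilent Feature Extraction 10.7.3.1, without normalization. The deposited files also hold a log10 ratio (Cy5 to Cy3) from the same program, for which the authors had it subtract background and normalize dyes. A table of the series held the same ratios (180072 of 180072 values, within 1e-06). The GeneSpring values of the paper's methods were not analysed here.

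The median signal and median background were used, since these columns were at hand. Normexp with an offset of 50 was run on all spots, followed by loess within each array with control spots at weight 0. Control spots and 122 to 162 outlier spots per array were left out, and spots of a probe were averaged. Ratios were turned to *Mut*/*WT*, and channel levels are normalized log2 signals after Aquantile normalization. Fold changes and log2 ratios were thus computed here from the deposited intensities. Ratios of 3 arrays were tested against 0 with limma 3.58.1 in R 4.3.3 over 41174 probes with Benjamini-Hochberg adjustment, and the steps were tested on simulated data.

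The members, the wider list and the markers were chosen with earlier results of these data known. Members with a called probe are described with the signal of each pool at 1 called probe, and of the wider list the genes called and examples of each role. Symbols came from a RefSeq table of GRCm38.p6, used for names only, which matched 22951 of 41174 probes (55.7%). *Vma21*, *Dmxl1*, *Dmxl2*, *Wdr7*, *Cd68*, *Hgsnat* and *Arsb* of the wider list, among others, and *Csf1r* and *Cd68* of the markers were not matched. *Mut* and *WT* pools of 1 array were treated as a pair. Over probes, their deviations from the group means correlated at 0.388, 0.431 and 0.32 (arrays 1, 2 and 3).

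The bound given for *Tfeb* is the mean *WT* signal over the mean of, for each array, the higher of the dimmest *Mut* signal well above background and the probe's own, and it is open to dye bias. Alternatives covered the deposited ratios, the offset, median centring, outlier spots, dim probes, a dye term, unpaired channels, the methods' *t*-test, 1 replicate left out at a time, the fold minimum and the median over probes.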

Additional observations from a re-analysis of the deposited data

How the results depend on the processing

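The numbers of V-ATPase, lysosomal and wider-list genes called were 3, 5 and 1. They were the same with outlier spots kept, with a filter on dim probes and with unpaired channels in place of the pairing of pools (no replicate block: 3, 5 and 1), and this fit changed no call among the 44 genes. Leaving out each replicate gave 2 to 4, 5 and 1 to 3, the last without replicate 3. Normexp without its offset and centring each array on its median called 0, 0 and 0 (limma) and 0 of all 41174 probes, against 4, 6 and 2 and 13, 18 and 27 at an unadjusted P under 0.05 with the fold minimum. Median centring also moved the median of all genes above background to -0.50, where those of the V-ATPase and lysosomal genes above background were -0.87 and -0.86. The dye term left 0, 3 and 1 called (limma), where 1, 3 and 1 passed at an unadjusted P under 0.05 with the fold minimum. With the methods' *t*-test 2, 5 and 1 were called at an unadjusted P under 0.05 (469 probes lower and 222 higher in all), and 0, 0 and 0, with 0 of all probes, after Benjamini-Hochberg adjustment. Without the fold minimum 13, 18 and 34 genes passed. On that measure 11, 18 and 28 were lower, against 11, 13 and 22 with unpaired channels, 4, 11 and 12 with the deposited ratios and 0, 3 and 1 with the dye term. The deposited ratios gave 2, 5 and 4, with *Atp6v1e1* (-0.64, adjusted P = 0.0955) and *Atp6ap1* (-0.82, adjusted P = 0.0822) lost and *Atp6v1h* gained (-0.62). Over all probes they called 1216 lower and 1488 higher, against 600 and 227, and the median of the lysosomal genes was -0.38. Taking each gene's median over its probes gave 2, 6 and 1. Against *WT* pool 2 in the same dye, a comparison chosen after seeing the data, 0, 0 and 0 genes were past 1.5-fold, where 48 of 16358 genes were lower by as much. Why the calls moved was not tested.

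Under the alternatives with a test, those of the 44 genes that changed sign had not passed the adjusted P, apart from *Atp6v0a2*, at -0.20 with median centring and -0.0092 with the median over probes. Against *WT* pool 2, without a test, 5 genes that had passed as lower were above 0: *Lamp2* (0.13), *Asah1* (0.12), *Lamp1* (0.11), *Atp6v1g1* (0.056) and *Atp6v1b2* (0.0080). The dye term turned *Atp6v1f* to 0.11, *Atp6v0a1* to 0.13, *Mcoln1* to -0.26 and *Atp13a2* to 0.075. Median centring turned *Mcoln1* to -0.58 and *Ctsb* to -0.53. The deposited ratios turned *Atp6v0a1* to 0.019, and the median over probes turned it to 0.055 and *Ctsb* to -0.025. Leaving out a replicate gave -0.012 to 0.11 for *Atp6v1c2* and -0.028 to 0.082 for *Mcoln1*, lowest without replicate 3. Signals near background limit *Tfeb*, *Atp6v0a4*, *Atp6v0d2*, *Atp6v1b1* and *Atp6v1c2*.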
